A study of Mus musculus with 8 samples.

Results

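Retinoic acid binding, metabolism, reception, and response are described here through 8 genes, Crabp1, Crabp2, Cyp26a1, Dhrs3, Rarb, Rarg, Stra8, and Hoxb1, out of 37263 Ensembl features counted in each of 8 RNA-seq libraries. The members are the features whose Ensembl identifier carries one of these symbols in GENCODE M21, and each symbol matched 1 feature. They were chosen from measured values, because the list was proposed with earlier results of these libraries known. Their levels and differences are therefore given as a description, and the numbers of members past a model's threshold are printed for context, with nothing read from them.

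RNA was sequenced from E14 cells, a feeder-independent mouse embryonic stem cell (ESC) line of the 129/Ola strain, cultured with LIF, a cytokine that sustains self-renewal. Serum medium was replaced by 2i, a serum-free medium (NDiff 227 with LIF) with PD0325901, an inhibitor of MEK, and CHIR99021, an inhibitor of GSK3, and RNA was taken 4, 16, 24, and 32 hr later. One set of cultures received 2i alone and the other 2i with 17 µM vitamin C (vitC), and every hour and treatment was covered by 1 library, 8 in all from 1 cell line. No serum library was analysed here, so every change with time is relative to 4 hr in 2i and not to serum. A number in the deposited files' names, read here as the sequencer lane, was 8 for the libraries of 4 and 24 hr and 7 for those of 16 and 32 hr. Comparisons of 24 hr with 4 hr and of 32 hr with 16 hr therefore stay within a lane, and in the others time cannot be told apart from lane.

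Retinoic acid is made from vitamin A (retinol) by successive oxidation of retinol to retinal and of retinal to the acid. CRABP proteins carry it in the cytoplasm, and in the nucleus it binds RAR receptors, which pair with RXR receptors on repeated hexamers of DNA and switch from repression to activation. Among the first genes to respond are Cyp26a1 and Dhrs3, which lower the supply of retinoic acid, as well as Rarb and the 3′ Hox genes, and retinoic acid drives ESCs out of self-renewal when it is added to their medium.

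Total counts ranged from 12940716 to 18434932 in 2i and from 4753528 to 13157570 with vitC. Levels are given as CPM, counts scaled to a common library total with TMM factors, and the interval after a CPM value is the exact 95% Poisson interval of its count, which covers counting error only. The members' counts ran from 7 (Rarb with vitC at 4 hr) to 4128 (Crabp1 in 2i at 32 hr). All 8 members passed the filter used for the tests, at least 1 CPM in at least 2 libraries, which 14931 features passed. Reads on Lars2 and on a few features that varied alongside it took different shares of the libraries, from 0.0277% to 5.92% in 2i and from 0.0113% to 7.11% with vitC, and this Lars2 share was lowest in both 4 hr libraries. The summed level of 5 ESC markers (Pou5f1, Nanog, Sox2, Zfp42, and Esrrb) was between 1234 and 1463 CPM in the 8 libraries, although its genes parted. From 4 to 32 hr Pou5f1 went from 505.5 to 338 CPM and Zfp42 from 172.5 to 127.7 CPM in 2i, whereas Sox2 went from 145 to 325.9 CPM and Esrrb from 149.3 to 266.6 CPM, and each of these genes was on the same side with vitC. Nanog was not, as it went from 395.5 to 405.1 CPM in 2i and from 437.2 to 347.9 CPM with vitC. Since these are bulk samples, more cells that express a gene and more RNA per cell cannot be told apart.

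The stretches printed next show some of the retinoic acid receptor hexamers that lie before the start sites of 3 members whose counts differed with time. RefSeq windows (GRCm38.p6) from 250 bases before to 50 bases after a start site were searched on both strands for 4 hexamers, the consensus AGGTCA and the variants AGTTCA as well as GGGTCA and also GGTTCA. A pair on one strand with 5 bases between is called DR5, a repeat to which RAR and RXR pairs are known to bind, and the hexamers in a DR5 are also counted singly. Capitals mark the hexamers, and each stretch is written 5′ to 3′ on the strand of the gene.
Rarb, chr14:16575508-16575535, minus strand, bases -59 to -32 from the start site: gggaagGGTTCAccgaaAGTTCActcgc
Cyp26a1, chr19:37697770-37697797, plus strand, bases -38 to -11: taaagaTGAACTttgggTGAACTaattt
Stra8, chr6:34920743-34920769, plus strand, bases -205 to -179: atggggtgaaaAGGTCAtcttgctcct
Stra8, chr6:34920899-34920925, plus strand, bases -49 to -23: cctggggtaccAGGTCAgttttttacc

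Rarb and Cyp26a1 were the members with a DR5, and the hexamers of Cyp26a1 lay on the strand opposite to the gene, where they read as the reverse complement. Of all 32851 windows of this length, 32 (0.0974%) held a DR5, whereas 43.7% held at least 1 of the hexamers. Among the 7 members with a window, 4 held a hexamer: Stra8, with its hexamers too far apart to form such a repeat, Rarb, Rarg, and Cyp26a1. A further hexamer of Rarb at bases -83 to -78 and the hexamer of Rarg at bases -225 to -220 are not in the printed stretches. Repeats with 1 or 2 bases between, in 0.222% and 0.268% of all windows, were found in 0 members. GENCODE M21 places the Rarb and Stra8 stretches within first exons of other transcripts of the same genes. A match is a description of these letters, and binding was not measured here.

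The binding proteins Crabp1 and Crabp2 were the members whose levels differed most between times in 2i, by 26.5-fold and 19.2-fold from the lowest to the highest library, and they did so on different schedules. With vitC the same range was 21.2-fold for Crabp1, 18.4-fold for the response gene Stra8, and 12.9-fold for Crabp2. Crabp2 (ENSMUSG00000004885), which hands retinoic acid to its receptor in the nucleus, was at 14.7 CPM (13.0 to 16.7), 52.4 CPM (49.2 to 55.7), 208 CPM (200.3 to 216), and 283 CPM (274.5 to 293) at 4, 16, 24, and 32 hr in 2i. The levels with vitC were 16.5 CPM (14.4 to 18.8), 55.8 CPM (50.4 to 61.7), 118 CPM (108 to 128), and 213 CPM (205 to 221) at the same times. In each treatment the 4 intervals did not overlap and followed the order of the hours, with most of the difference reached by 24 hr in 2i. Within lane 8 the level at 24 hr was 14.1 times that at 4 hr in 2i and 7.15 times with vitC, and within lane 7 the level at 32 hr was 5.41 and 3.81 times that at 16 hr.

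Crabp1 (ENSMUSG00000032291), which binds retinoic acid in the cytoplasm and is linked to its turnover, was at 11.6 CPM (10.04 to 13.3), 12.4 CPM (10.9 to 14.1), 49.8 CPM (46.0 to 53.8), and 307 CPM (297.5 to 316) at 4, 16, 24, and 32 hr in 2i. In 2i+vitC it stood at 7.99 CPM (6.55 to 9.66), 12.3 CPM (9.80 to 15.2), 37.6 CPM (32.2 to 43.6), and 169.7 CPM (162 to 177). In 2i the 4 and 16 hr libraries overlapped in their intervals, and the 32 hr library stood far above the rest. In 2i the log2 ratio of 16 over 4 hr was 0.10 (exact 95% interval from the binomial split of the reads -0.18 to 0.38, counting error only), when Crabp2 already stood at 1.83 (1.63 to 2.03). From 16 to 32 hr, within lane 7, Crabp1 was 24.7-fold higher in 2i and 13.8-fold higher with vitC. Crabp1 thus trailed Crabp2 at 16 and 24 hr in both treatments and was above it per kilobase at 32 hr, at 382.5 against 214 RPKM in 2i and 212 against 161 RPKM with vitC (RPKM, CPM per kilobase of merged exons, is the scale used for levels between genes).

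Of the genes that limit the supply of retinoic acid, Cyp26a1 was highest at 16 hr and lower afterwards, unlike the binding proteins. Cyp26a1 (ENSMUSG00000024987), the cytochrome P450 that oxidizes retinoic acid for removal, was at 1.86 CPM (1.27 to 2.63), 8.53 CPM (7.26 to 9.94), 4.16 CPM (3.11 to 5.44), and 4.38 CPM (3.34 to 5.66) at 4, 16, 24, and 32 hr in 2i. With vitC the libraries held 1.42 CPM (0.855 to 2.22), 4.18 CPM (2.80 to 6.01), 2.79 CPM (1.49 to 4.77), and 1.67 CPM (1.02 to 2.58), from 13 to 29 counts. The 16 hr library was the highest in both treatments, and in 2i its interval lay above the other intervals. Within lane 7 the log2 ratio of 32 over 16 hr was -0.96 (-1.42 to -0.52) in 2i and -1.33 (-2.23 to -0.46) with vitC.

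Dhrs3 (ENSMUSG00000066026), a reductase that turns retinal back into retinol, was at 6.93 CPM (5.74 to 8.30), 11.6 CPM (10.1 to 13.2), 9.72 CPM (8.09 to 11.6), and 10.8 CPM (9.09 to 12.7) at 4, 16, 24, and 32 hr in 2i. Its levels in 2i+vitC were 4.26 CPM (3.22 to 5.52), 8.51 CPM (6.48 to 10.98), 10.3 CPM (7.60 to 13.7), and 10.7 CPM (8.91 to 12.7). The 4 hr library was the lowest in both treatments, and the intervals of the 3 later libraries overlapped. Within lane 8, Dhrs3 at 24 hr was 1.40 times its 4 hr level in 2i and 2.42 times with vitC.

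The receptors Rarb and Rarg took different courses, with Rarb higher from 16 hr on and Rarg lower only at 24 and 32 hr. Rarb (ENSMUSG00000017491), the receptor known for its own retinoic acid response element, was at 1.22 CPM (0.757 to 1.87), 5.26 CPM (4.28 to 6.40), 4.47 CPM (3.38 to 5.79), and 6.99 CPM (5.65 to 8.55) at 4, 16, 24, and 32 hr in 2i. With vitC the levels stood at 0.523 CPM (0.210 to 1.08), 4.18 CPM (2.80 to 6.01), 6.23 CPM (4.17 to 8.94), and 4.17 CPM (3.10 to 5.50). Both 4 hr libraries lay below every later one, with no overlap of intervals within a treatment, and at 16 hr the level was 4.30 times that at 4 hr in 2i and 8.0 times with vitC. Of the 5265 exon bases of Rarb, 1793 lie on exons of Top2b on the opposite strand, which reached 2924 counts against at most 100 for Rarb, and the strand setting of the counting is not given in the sources used here.

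Rarg (ENSMUSG00000001288), an RAR that ESCs express, was at 68.6 CPM (64.7 to 72.6), 73.3 CPM (69.5 to 77.3), 50.3 CPM (46.4 to 54.3), and 55.2 CPM (51.3 to 59.3) at 4, 16, 24, and 32 hr in 2i. In the 2i+vitC libraries it was at 68.8 CPM (64.4 to 73.4), 73.9 CPM (67.6 to 80.6), 50.9 CPM (44.6 to 57.8), and 47.6 CPM (43.8 to 51.7). The 4 and 16 hr libraries lay above the 24 and 32 hr libraries in both treatments, without overlap of intervals. Within lane 8 the log2 ratio of 24 over 4 hr was -0.45 (-0.59 to -0.31) in 2i and -0.44 (-0.65 to -0.23) with vitC, and within lane 7 that of 32 over 16 hr was -0.41 (-0.54 to -0.28) and -0.63 (-0.81 to -0.46).

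The response genes Stra8 and Hoxb1 were both higher at 24 and 32 hr than at 4 hr in each treatment. Stra8 (ENSMUSG00000029848), which retinoic acid induces in germ cells that enter meiosis, was at 5.71 CPM (4.63 to 6.96), 20.6 CPM (18.6 to 22.8), 47.0 CPM (43.3 to 50.9), and 64.1 CPM (59.9 to 68.6) at 4, 16, 24, and 32 hr in 2i. With vitC the levels were 4.18 CPM (3.16 to 5.43), 31.0 CPM (27.0 to 35.5), 65.5 CPM (58.4 to 73.3), and 77.2 CPM (72.3 to 82.3). The levels followed the order of the hours in both treatments, and only the 24 and 32 hr intervals with vitC touched each other. Within lane 8 the 24 hr level was 8.23 times that of 4 hr in 2i and 15.7 times with vitC.

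Beside Stra8, the summed level of 4 germ cell markers (Ddx4, Dazl, Sycp3, and Dmc1) was 72.5, 44.4, 67.2, and 72.7 CPM in 2i and 74.1, 61.5, 105, and 109 CPM with vitC. Of these, Dazl, an RNA-binding protein of germ cells, went from 20.1 CPM at 4 hr to 73.7 CPM at 32 hr with vitC and from 26.7 to 36.5 CPM in 2i. Ddx4, the germ cell helicase that defines the lineage, was lower at 32 hr than at 4 hr, at 9.36 against 16.8 CPM in 2i and at 6.34 against 19.4 CPM with vitC. The part of any such cells in the level of Stra8 was not tested.

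Hoxb1 (ENSMUSG00000018973), a hindbrain gene with retinoic acid response elements around it, was at 1.40 CPM (0.896 to 2.08), 1.58 CPM (1.06 to 2.25), 3.45 CPM (2.51 to 4.63), and 3.86 CPM (2.89 to 5.07) at 4, 16, 24, and 32 hr in 2i. In 2i+vitC the level was 0.822 CPM (0.410 to 1.47), 5.05 CPM (3.52 to 7.02), 4.08 CPM (2.46 to 6.37), and 4.504 CPM (3.38 to 5.88), from 11 to 54 counts. In 2i the 16 hr library was beside the 4 hr library, whereas with vitC it was beside the later ones. At 16 hr the level was 1.13 times that at 4 hr in 2i and 6.15 times with vitC. With the Lars2 share as a covariate, a setting chosen after seeing the data, the fitted log2 fold changes of Hoxb1 against 4 hr turned negative, at -0.53, -0.89, and -0.08 for 16, 24, and 32 hr.

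**Figure D1:**
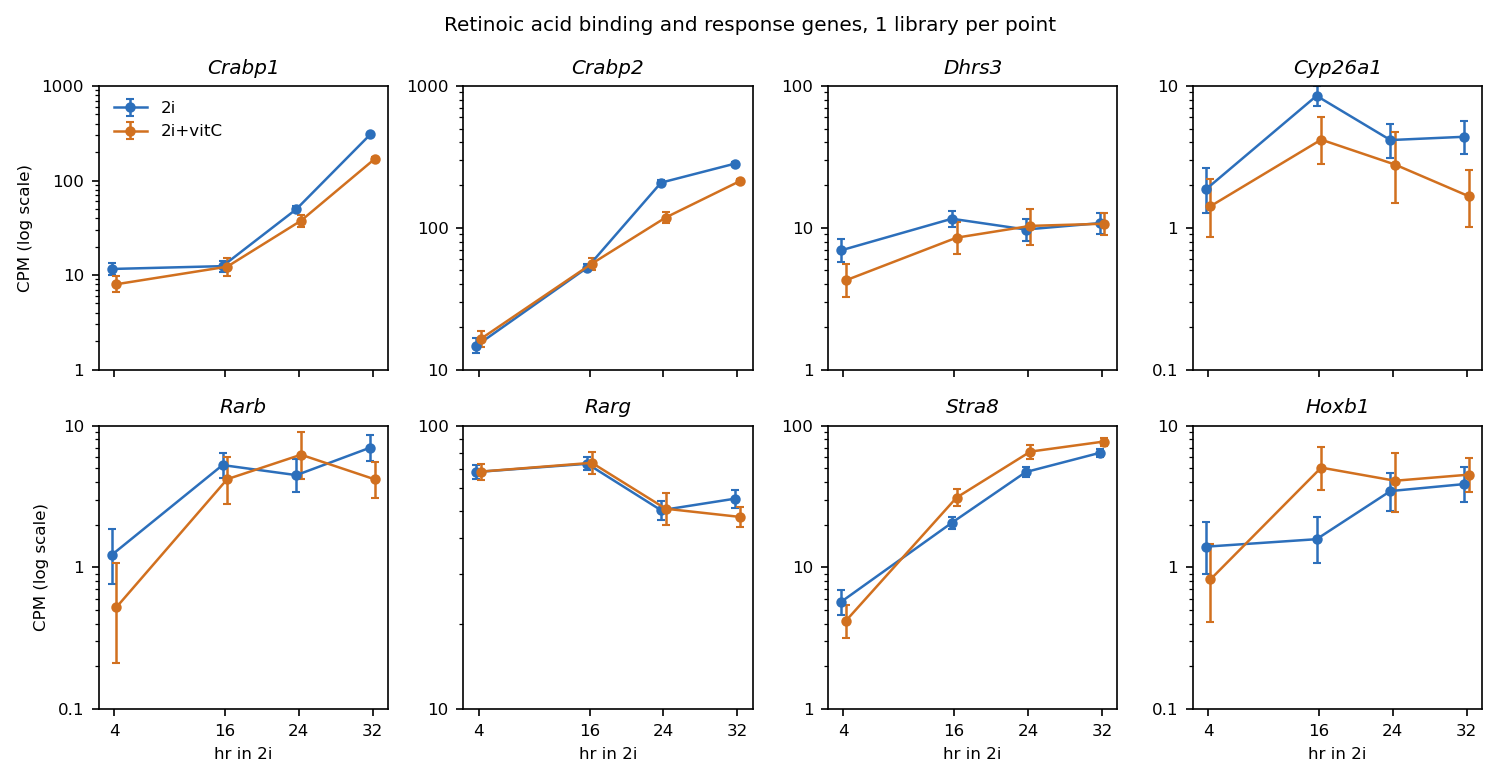
CPM (log scale, with its own range in each panel) of the 8 members against hours in 2i, for 2i (blue) and 2i+vitC (orange). Each point is 1 library and bars are exact 95% Poisson intervals of the count. Crabp1 stays near 12 CPM at 16 hr and reaches 307 CPM in 2i at 32 hr, Cyp26a1 is highest at 16 hr, and Rarg is lower at 24 and 32 hr.

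On the scale of RPKM the order of the members changed with time. At 4 hr Rarg was the highest member in both treatments, at 16.1 RPKM (15.2 to 17.0) in 2i and 16.2 RPKM (15.1 to 17.2) with vitC. In 2i its counting interval overlapped that of Crabp1, next at 14.5 RPKM (12.5 to 16.6), whereas with vitC it lay above that of Crabp2, next at 12.5 RPKM (10.9 to 14.2). Crabp2 was the highest member at 16 and 24 hr and Crabp1 at 32 hr, in both treatments and with intervals apart from the next gene. At 16 hr Rarg and Crabp1 overlapped in both treatments, and with vitC Stra8 overlapped with them. Dhrs3, Cyp26a1, Hoxb1, and Rarb held the last 4 places in every library, with mean levels of 3.11, 1.83, 1.33, and 0.785 RPKM, and the intervals of Cyp26a1 and Hoxb1 overlapped in every library but those at 16 hr in 2i and at 32 hr with vitC.

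For context, an additive model of time and treatment was fitted with edgeR's quasi-likelihood test to all 14931 features, with Benjamini-Hochberg adjustment at 0.05. With 3 residual degrees of freedom, its error comes from how far 2i and 2i+vitC part from parallel courses, since there are no replicate cultures. The test shares this error across features, so the p-value of a gene rests in part on the spread of other genes. For 16 hr against 4 hr, 9.16% of all features were called higher and 7.24% lower, for 24 hr 11.5% and 8.98%, and for 32 hr 13.5% and 11.8%. Of the 8 members, 4 were past the threshold at 16 hr, all of them higher. At 24 hr 5 were higher and 1 lower, and at 32 hr 6 were higher and 1 lower. With the Lars2 share as a covariate 0, 0, and 3 members were past the threshold by time, and at 32 hr 4 were without the 2i+vitC library at 4 hr and without either library of 32 hr. The lower member, Rarg, was not past it without the filter, without the treatment term, or by DESeq2 at either time, nor with RLE scaling at 24 hr. With 1 library left out it was past it in 1 of 8 fits at 24 hr and in 2 of 8 at 32 hr. The members' median fitted log2 fold changes were 1.57, 1.93, and 2.24, beside 0.01, 0.01, and 0.00 over all features. Nothing is read from these shares, since the members were chosen with these contrasts known.

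Addition of vitC went with lower Crabp1, Crabp2, and Cyp26a1 at the later times and with higher Stra8. At 32 hr the log2 ratio of 2i+vitC to 2i was -0.85 (-0.93 to -0.78) for Crabp1, -0.41 (-0.49 to -0.34) for Crabp2, and -1.39 (-2.20 to -0.64) for Cyp26a1. Each of these intervals, which cover counting error only, lay below 0, as did those of Rarb at -0.74 (-1.27 to -0.23) and Rarg at -0.21 (-0.37 to -0.05). For Stra8 the ratio was 0.27 (0.13 to 0.40), and for Dhrs3 and Hoxb1 the intervals spanned 0.

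The difference with vitC was not of one size over the hours. Crabp1 was lower with vitC at 4 hr too, by a log2 ratio of -0.54 (-0.89 to -0.19), was level at 16 hr at -0.02 (-0.39 to 0.35), and was lower again at 24 hr at -0.41 (-0.66 to -0.16). Crabp2 showed intervals across 0 at 4 hr (-0.10 to 0.43) and 16 hr (-0.08 to 0.26), and its lowest ratio at 24 hr, -0.82 (-0.95 to -0.68). The ratio of Cyp26a1 was below 0 at all 4 times, with an interval that excluded 0 at 16 hr (-1.65 to -0.45) and 32 hr. The ratio of Rarb was -1.23 (-2.70 to 0.06) at 4 hr, -0.33 (-0.98 to 0.28) at 16 hr, and 0.48 (-0.22 to 1.15) at 24 hr, so that its sign at 24 hr was opposite to that at 32 hr, and these 3 intervals spanned 0.

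Stra8 was above 0 at 16 hr, at 0.59 (0.34 to 0.83), and at 24 hr, at 0.48 (0.28 to 0.68), whereas its interval at 4 hr spanned 0 (-0.95 to 0.04). The largest single ratio was that of Hoxb1 at 16 hr, 1.68 (0.93 to 2.43), from 30 counts in 2i and 35 with vitC. Dhrs3 was lower with vitC at 4 hr, at -0.70 (-1.18 to -0.24), and at 16 hr, at -0.44 (-0.88 to -0.02), and at 24 and 32 hr its intervals spanned 0. Rarg kept intervals across 0 at 4, 16, and 24 hr, the narrowest at 4 hr (-0.12 to 0.13). The Lars2 share also differed between the libraries compared, at 0.206% and 7.11% at 16 hr and at 0.564% and 4.21% at 32 hr, whereas at 24 hr it was close (5.92% and 6.37%), and its part in these ratios was not tested at a single hour.

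**Figure D2:**
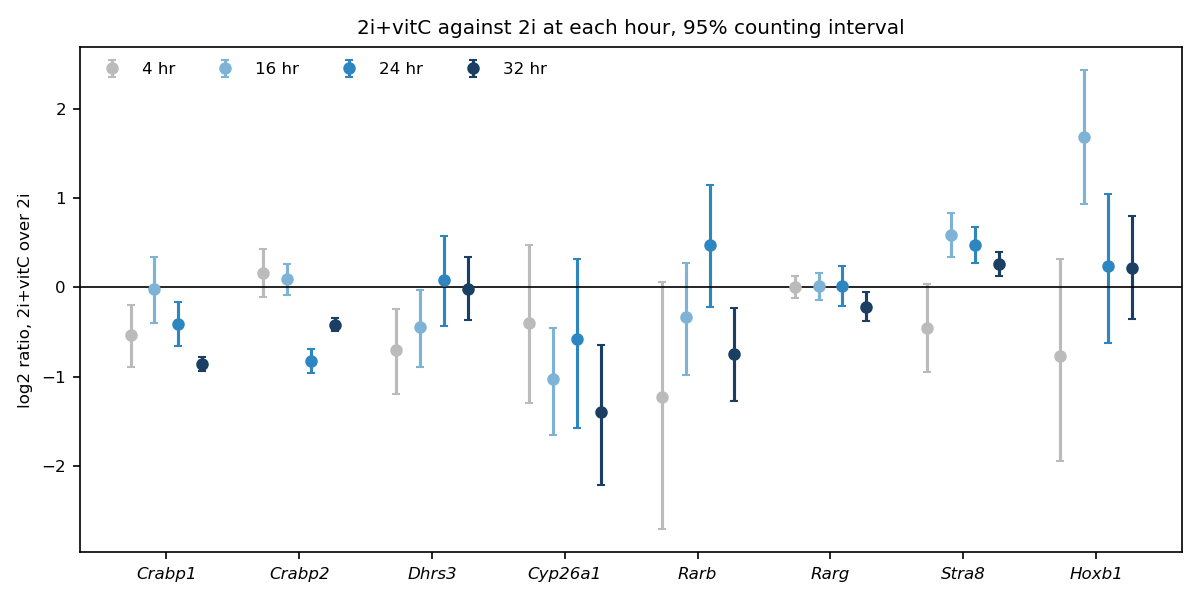
Log2 ratio of CPM in 2i+vitC over 2i for each member at 4, 16, 24, and 32 hr (light to dark), with exact 95% counting intervals from 1 library per treatment. Points below 0 are lower with vitC. Crabp1 and Cyp26a1 are lowest at 32 hr (-0.85 and -1.39), Crabp2 at 24 hr (-0.82), and the highest point is Hoxb1 at 16 hr (1.68).

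In the additive model, 0.107% of all features were higher and 0.0603% lower with vitC, and 0% had a vitC effect that changed with hours, where 431 features had an unadjusted p-value under 0.05 and DESeq2 called 1. None of the 8 members was past the threshold in either comparison, with 2 and 0 at an unadjusted p-value under 0.05 and 0 by DESeq2. Of all 14931 features, 2062 and 431 had an unadjusted p-value under 0.05 in these comparisons. Without the filter on low counts 1 member, Crabp1, was called lower with vitC, beside 217 of all 23194 features in that fit. The spread of this model takes in every difference between hours in the effect of vitC, so that intervals from counting alone are narrower than its error. A p-value that misses the threshold does not show that vitC left these genes alone.

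The other genes of the pathway were taken from a list of 56 retinoid genes, of which 55 were found in the files and 42 passed the filter. This list was drawn up from knowledge of the pathway but with earlier results of these libraries known. The numbers past the threshold are therefore a description and not independent support. Against 4 hr, 10 of the 42 rose and 5 fell at 16 hr, 19 rose and 2 fell at 24 hr, and 18 rose and 2 fell at 32 hr (edgeR's quasi-likelihood test, adjusted over all 14931 features). Over all features 9.16% were called higher and 7.24% lower at 16 hr, 11.5% and 8.98% at 24 hr, and 13.5% and 11.8% at 32 hr. The counts by role given below are to be read beside these shares. Their median log2 fold changes were 0.48, 0.80, and 0.56, beside medians over all features of 0.01, 0.01, and 0.00. All of these genes had the same direction in 2i alone and with vitC alone. The additive model favours such genes, because its error grows where the treatments part, so this agreement is no separate evidence. With the Lars2 share as a covariate, a setting added once the data had been seen, whose values overlap with time, 2, 0, and 5 genes passed, all of which rose, with 11, 11, and 16 at an unadjusted p-value under 0.05. Of all 14931 features, 73, 0, and 159 passed in that fit, with 2178, 1416, and 2394 at an unadjusted p-value under 0.05. Single libraries also mattered. Without the 2i+vitC library at 4 hr the number called at 16 hr was 8 and at 24 hr 12, without the 2i+vitC library at 24 hr the number called at 24 hr was 9, and at 32 hr it was 10 without the 2i library at 32 hr and 13 without the 2i+vitC library at 32 hr. Calls that a correction for GC content and length ended were those of Rara at 32 hr, Ppard, Ncoa2, Ncor1, Meis2, and Hoxb3 and of Nrip1 at 16 hr. Without the treatment term those of Ppard, Ncor1, Hoxb3, Fabp5, Aldh1a3, and Tgm2, and of Hoxa2 and Nrip1 at 16 hr, Rdh11 at 24 hr, and Aldh1a2 and Ncoa2 at 32 hr were lost. DESeq2 did not call Rxrg at 16 hr, Hoxa5 and Hoxb4 at 24 hr, or Hoxb3.

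Among transport and binding genes, 5 of 8 were tested and 1 rose at each time. Stra6, the membrane receptor through which cells take up retinol, was at 0.583, 4.16, 4.39, and 6.61 CPM in 2i and at 0.971, 7.65, 6.66, and 8.84 CPM with vitC, and its log2 fold change at 32 hr was 3.33 (SE 0.38, edgeR adjusted p = 0.000116). Fabp5, a fatty acid carrier that can also deliver retinoic acid, fell at 16 hr by 0.85 on the log2 scale (edgeR adjusted p = 0.0307).

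Among storage and synthesis genes, 8 of 13 were tested, and the dehydrogenases that make retinal and retinoic acid moved in both directions. Aldh1a2, which oxidizes retinal to retinoic acid, was at 9.61, 39.9, 27.0, and 15.7 CPM in 2i and at 6.20, 26.7, 20.2, and 12.0 CPM with vitC. It rose at all 3 times, with the largest log2 fold change at 16 hr (2.08, SE 0.20, edgeR adjusted p = 0.000152) and the smallest at 32 hr (0.82, SE 0.20, edgeR adjusted p = 0.0121), so that its highest library, like that of Cyp26a1, was the one at 16 hr in both treatments.

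Rdh10, which oxidizes retinol to retinal in the embryo, fell at all 3 times, from 93.1 CPM at 4 hr to 35.8, 42.3, and 36.6 CPM in 2i and from 84.1 CPM to 28.9, 29.2, and 33.8 CPM with vitC (log2 fold change at 24 hr -1.31, SE 0.16, edgeR adjusted p = 0.000342). Rdh11, a retinal reductase, rose at all 3 times, by 0.75 on the log2 scale at 16 hr (SE 0.14, edgeR adjusted p = 0.00483). Aldh1a3, another maker of retinoic acid, fell at 16 hr (log2 fold change -2.36, SE 0.64, edgeR adjusted p = 0.0274), on 2 to 61 counts a library, and was at 3.79 CPM in 2i at 32 hr beside 3.55 CPM at 4 hr. Cyp26b1, the only tested degrading enzyme beside the members, was at 0.408, 2.32, 1.41, and 0.446 CPM in 2i and at 1.27, 1.30, 1.29, and 1.08 CPM with vitC, and did not pass.

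Of the 5 other receptors tested, 2 rose at 24 and 32 hr. Rara, the RAR gene that most cells express, was at 20.9, 28.4, 28.2, and 30.8 CPM in 2i and at 17.1, 33.5, 47.4, and 37.8 CPM with vitC (log2 fold change at 24 hr 0.93, SE 0.23, edgeR adjusted p = 0.013). Ppard, a fatty acid receptor that can also take retinoic acid, had a log2 fold change of 1.22 at 32 hr (SE 0.35, edgeR adjusted p = 0.0225). Rxrg fell at 16 and 32 hr from 27 and 21 counts at 4 hr, and with 0 counts at 32 hr in both treatments it was at least 7.06-fold lower in 2i and at least 6.27-fold lower with vitC (floor of 3 counts per library).

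Rxra and Rxrb, the widely expressed partners of RAR, did not pass at any time, with log2 fold changes at 24 hr of -0.05 (SE 0.17) and 0.07 (SE 0.16). RAR genes thus went in different directions, as Rara rose and Rarg was lower at 24 and 32 hr. Among 7 coregulators, Nrip1, a corepressor that binds the active receptor, rose at all 3 times (log2 fold change at 24 hr 1.24, SE 0.20, edgeR adjusted p = 0.00165). The corepressor Ncor1 rose at 24 hr, by a log2 fold change of 0.73 (SE 0.19, edgeR adjusted p = 0.016). The coactivator Ncoa2 rose at 24 hr by 0.76 (SE 0.15, edgeR adjusted p = 0.00459) and at 32 hr.

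The response genes formed the largest group, with 16 of 21 tested, of which 6 rose at 16 hr, 10 at 24 hr, and 11 at 32 hr, whereas 1 fell at 16 hr, 1 at 24 hr, and 0 at 32 hr. Their median log2 fold change was 1.33, 1.96, and 2.09 at these times. Cdx1, a homeobox gene with retinoic acid and Wnt response elements, was at 5.88, 40.6, 32.4, and 38.3 CPM in 2i and at 3.06, 37.7, 24.5, and 29.1 CPM with vitC. Its log2 fold change was 3.15 at 16 hr (SE 0.23, edgeR adjusted p = 3.77e-05), 2.67 (SE 0.23) at 24 hr, and 2.92 (SE 0.23) at 32 hr.

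Hoxb2, a 3′ Hox gene of the hindbrain, was at 3.44, 8.21, 12.3, and 22.9 CPM in 2i and at 2.91, 6.78, 14.4, and 21.4 CPM with vitC. Its log2 fold change went up with each time, from 1.25 (SE 0.26) at 16 hr to 2.79 (SE 0.25, edgeR adjusted p = 2.66e-05) at 32 hr. Hoxb2 was in order of hours in both treatments. Its neighbour Hoxb1 was in that order in 2i, but its intervals overlapped between 4 and 16 hr and between 24 and 32 hr. With vitC Hoxb1 was highest at 16 hr, and its intervals at 16, 24, and 32 hr overlapped.

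Hoxa2, Hoxa3, Hoxa5, Hoxb3, and Hoxb4 passed at low counts. Hoxa2 rose at all 3 times, Hoxb4 at 24 and 32 hr, Hoxa5 at 24 and 32 hr, and Hoxa3 and Hoxb3 at 32 hr. Hoxa5 had 0 counts in both 4 hr libraries and 20 and 5 counts at 32 hr, at least 8.50-fold higher in 2i and at least 1.86-fold higher with vitC. Hoxb4 went from 5 and 1 counts at 4 hr to 32 and 24 counts at 32 hr in 2i and with vitC.

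Rec8, a meiotic cohesin subunit that retinoic acid induces together with Stra8 in germ cells, was at 5.36, 14.7, 19.99, and 25.7 CPM in 2i and at 5.38, 14.4, 23.4, and 21.9 CPM with vitC (log2 fold change at 32 hr 2.15, SE 0.22, edgeR adjusted p = 6.81e-05). Meis1, a Hox cofactor, rose at 24 and 32 hr (log2 fold change at 32 hr 1.71, SE 0.25, edgeR adjusted p = 0.000524), Meis2 at 24 hr, and the zinc finger gene Tshz1 at all 3 times. Tgm2, a transglutaminase that retinoic acid induces in many cells, fell at 16 and 24 hr (log2 fold change at 16 hr -0.74, SE 0.18, edgeR adjusted p = 0.0149), against the direction of the other response genes that passed. With vitC 0 of the 42 genes passed (edgeR adjusted p), with 13 at an unadjusted p-value under 0.05, a median log2 fold change of 0.06 beside -0.02 over all features, and 1 called by DESeq2. Of all 14931 features, 2062 had an unadjusted p-value under 0.05 with vitC, and DESeq2 called 299. Over all features 0.107% were called higher and 0.0603% lower with vitC. For a vitC effect that changed with hours 0 of 42 passed, with 1 at an unadjusted p-value under 0.05, beside 431 of all 14931 features, and 0 by DESeq2.

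**Figure D3:**
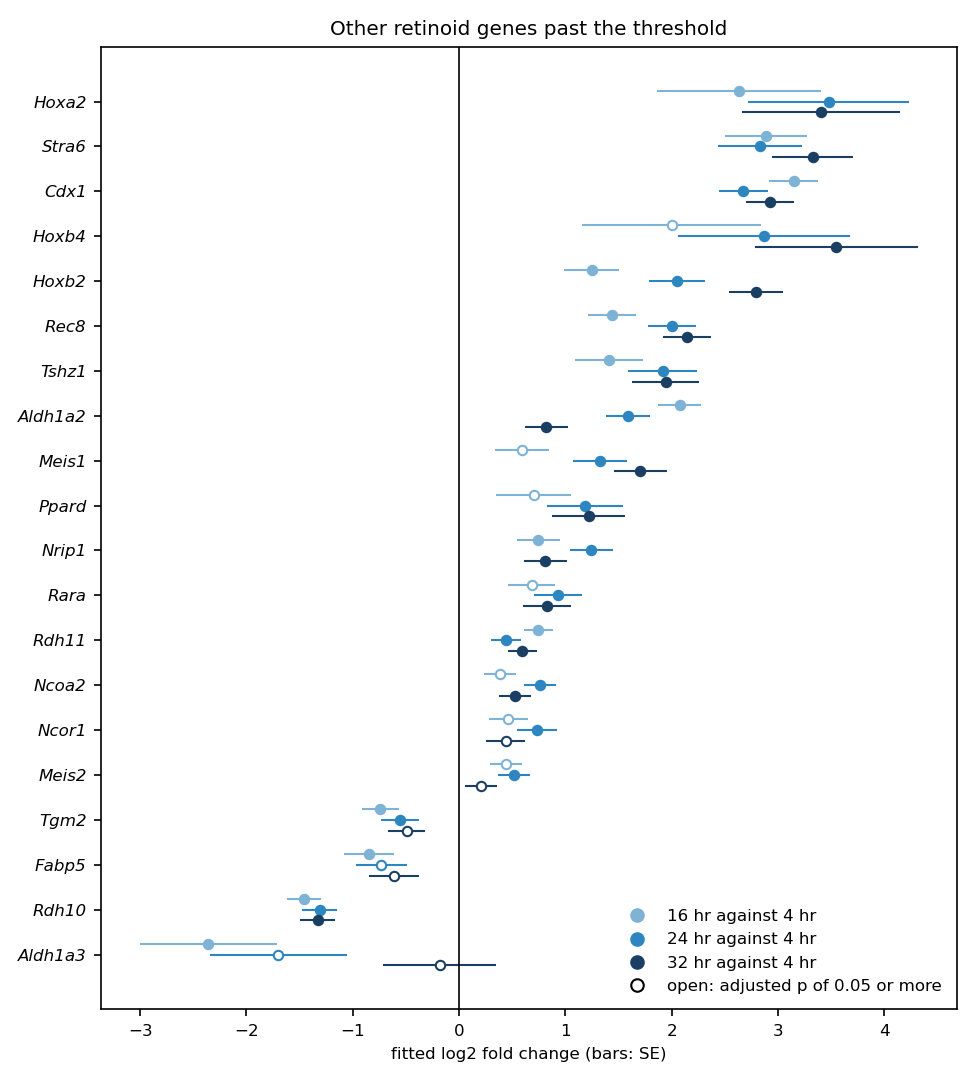
Fitted log2 fold changes against 4 hr (edgeR, additive model, bars are SE) of 20 other retinoid genes that passed in at least 1 time comparison (genes given as bounds from 0 counts, Hoxa3, Hoxa5, Hoxb3, and Rxrg, are among those left out), at 16, 24, and 32 hr (light to dark). Filled points passed an adjusted p of 0.05. Stra6 and Cdx1 lie near 3 at all times, Aldh1a2 is highest at 16 hr (2.08), Hoxb2 and Meis1 are highest at 32 hr, and Rdh10 lies near -1.3.

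Markers of other cell types were set beside these results as whole lists. The summed level of 7 primitive endoderm markers was 13.5, 17.1, 19.4, and 25.1 CPM in 2i and 10.98, 19.6, 33.3, and 33.0 CPM with vitC, mostly from Dab2 and Pdgfra, while the defining Gata6 was at 0.433 to 1.58 CPM and Sox7 at 0 to 0.598 CPM. Sox17, another defining factor of that lineage, was at 0.699, 1.68, 1.02, and 3.27 CPM in 2i and at 0.0747, 0.722, 4.72, and 2.84 CPM with vitC, on 1 to 44 counts. Of 5 neural ectoderm markers 3 were found, at 0.299 to 4.38 CPM in sum, with Neurog2 at 0 to 0.0583 CPM. Their sum was highest at 32 hr in both treatments, mostly from Zic1, which went from 7 counts at 4 hr to 50 at 32 hr in 2i and from 1 to 37 with vitC. The 4 mesendoderm markers went from 24.4 CPM at 4 hr to 12.0 CPM at 32 hr in 2i and from 21.8 to 11.9 CPM with vitC. In that list T, Eomes, and Mixl1 were lower at 32 hr in both treatments. Gsc went from 0.408 to 1.56 CPM in 2i and from 0.299 to 3.25 CPM with vitC. The 4 trophoblast markers were at 15.1 to 31.3 CPM. Among them Cdx2 went from 8.91 to 1.04 CPM in 2i and from 10.98 to 1.08 CPM with vitC. Krt7 went from 21.1 to 12.4 CPM in 2i and from 10.2 to 24.8 CPM with vitC. The 4 markers of cells like those of the 2-cell embryo were at 3.09 to 7.36 CPM. The 4 fibroblast markers were at 113, 259, 359.5, and 282.5 CPM in 2i and at 94.2, 413, 665, and 404 CPM with vitC, mostly from Col1a1 and Col1a2. From 4 to 32 hr Thy1 went down, from 6.53 to 1.635 CPM in 2i and from 2.84 to 1.00 CPM with vitC. Col3a1 went from 6.23 to 4.46 CPM in 2i and from 4.26 to 9.59 CPM with vitC. The sums of the primitive endoderm and fibroblast lists were thus higher at later times, as were most members, that of the neural ectoderm list was higher at 32 hr, and that of the germ cell list was higher at 24 and 32 hr with vitC. The mesendoderm sum was lower at 32 hr than at 4 hr in both treatments. The trophoblast sum was lower at 32 hr in 2i and higher with vitC, at 26.5 against 22.4 CPM. The part of these cell types in the members' levels was not tested.

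The genes whose course was most like that of the 2 members with the highest mean CPM were found by Pearson's r of log2 CPM over the 8 libraries among 10457 protein-coding genes with a mean of at least 5 CPM, as a description of points that share time, lane, and depth. For Crabp2 these were Lamb2 (r = 0.991), Igf2r (0.988), Cox7a1 (0.987), Il17rd (0.987), and Acss1 (0.986). For Crabp1 they were Golm1 (r = 0.997), Mpst (0.994), Nuak1 (0.986), Tcf12 (0.984), and Hebp1 (0.983). No gene stood in both lists, and none of the 10 was among the retinoid genes listed here.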

How the data were processed

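Total RNA of 8 samples was depleted of ribosomal RNA, and TruSeq libraries were read as single-end 50-base reads. The authors deposited raw counts per Ensembl gene, not normalized. The submitters' processing notes name GSNAP, HTSeq, and NCBIM37 (mm9), whereas the annotation release and the strand setting are not given in the sources used here. Inhibitor concentrations carry different units in the labels and the paper and are not printed. Symbols, exon lengths, and GC content came from GENCODE M21 (32604 of 37263 identifiers matched), and hexamers from RefSeq windows (GRCm38.p6), whose coordinates are of another build than the counts. Treatment and time came from the labels. The lane was inferred from a number in the deposited files' names and is not given in the labels.

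Counts were scaled with TMM factors. The features tested had 1 CPM or more in 2 or more libraries, and the test was that of edgeR 4.0.16 in R 4.3.3 (quasi-likelihood test, additive treatment and time, 3 residual degrees of freedom, or 2 with treatment by hours added, and Benjamini-Hochberg adjustment at 0.05), after tests on simulated data. With 1 library per combination, p-values have no replicate cultures behind them. The test also shares its estimate of spread across features, so a p-value does not rest on the 3 residual degrees of freedom of 1 gene alone. Intervals for single libraries are exact 95% Poisson intervals, and those for ratios of 2 libraries are exact binomial (Clopper-Pearson), from SciPy 1.17.1. They cover counting error only, since no molecular identifiers tell PCR copies from molecules. The SE of a fitted log2 fold change was derived from the test, as its size divided by the square root of the F statistic. The floor was 3 counts, 0.158 to 0.644 CPM.

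The members and lists were chosen with earlier results of these data known. Every member is reported in every library. Other retinoid genes are named where they passed in any comparison or were set beforehand (Rara, Rxra, Rxrb, Aldh1a2, Rdh10, Cyp26b1, and Hoxb2). Some genes that this rule takes in are counted with their lists but not reported here by name. The alternatives were DESeq2 1.42.0, RLE scaling, no filter, leaving out the Lars2 features, a correction for GC content and length, models without the treatment or time term, each library left out, and, added after seeing the data, the Lars2 share as a covariate.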

Additional observations from a re-analysis of the deposited data

How the results depend on the processing

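Called numbers of genes depended on the model more than on the scaling. Over all features, 2448, 3061, and 3785 genes passed at 16, 24, and 32 hr against 4 hr, and 25 with vitC. Without the treatment term 1289 passed at 16 hr and 1891 at 24 hr, and with the Lars2 share as a covariate, an alternative that was added once the data had been seen, 73, 0, and 159 passed by time (1416 at an unadjusted p-value under 0.05 at 24 hr) and 4 with vitC. For vitC the number was 690 without the filter, 60 without the Lars2 features, 15 after the correction for GC content and length, 0 without the time term, and 299 by DESeq2. For a vitC effect that changed with hours it was 0, but 5 without the filter and 1 by DESeq2. Leaving out 1 library at a time gave 647 to 2063, 748 to 3341, and 1403 to 4073 genes by time, 0 to 458 with vitC, and 0 to 25 for the change with hours.

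For the other retinoid genes, 15, 21, and 20 of 42 passed by time. With the Lars2 share as a covariate 2, 0, and 5 did, and leaving out 1 library at a time gave 8 to 16, 9 to 23, and 10 to 22. With vitC 0 passed, but 2 without the filter (Nav2 among them), 1 by DESeq2, and 0 to 2 with 1 library left out. For the change with hours the range was 0 to 1.

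Of the members' fitted log2 fold changes under the alternatives, 385 stayed within their counting error, 56 moved beyond it, and 7 reversed. A change of sign was counted as reversed only where the value in the additive model was larger in size than its counting error. Rarg at 16 hr against 4 hr was -0.04 after the correction for GC content and length. Hoxb1 was -0.53, -0.89, and -0.08 by time and -0.21 for vitC with the Lars2 share as a covariate, and with 1 library left out its value for vitC ran from -0.04 to 0.71, below 0 without either library of 16 hr (-0.03 and -0.04). The cause was not tested. Cyp26a1, Rarb, and Hoxb1 had 7 to 162 counts a library, which limits what their ratios can show. Fitting without every library with a Lars2 share above 4% would leave no residual degrees of freedom and was not run.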
